A study of Mus musculus with 18 samples.

Results

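The type I interferon-stimulated genes are a set of 43 mouse genes chosen by name from platform gene symbols. Of these, 40 had at least 1 probe and 35 passed the detection filter, out of 11233 genes tested on the same arrays. Each gene was represented by its probe with the highest mean signal, kept where the detection p was under 0.05 on at least 3 arrays. Ifi44, Ifi203 and Herc6 had no probe with a single symbol. Ifih1, Oas1a, Ifit1, Isg20 and Xaf1 had a probe that did not pass the filter and are not described further. Oas3, Mx1 and Ifi204 were each detected on 3 arrays and would not have passed without the ssRNA-injected A/J legs. These legs held 1 of the 3 arrays for Oas3, 2 for Mx1 and 3 for Ifi204.

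RNA came from the tibialis anterior, a leg muscle, of mice aged 2 months in 3 strains. A/JOlaHsd is labelled wild-type and makes dysferlin, a membrane repair protein of muscle. A/J lacks dysferlin. A/J-MyD88 lacks dysferlin and also MyD88, an adaptor protein of toll-like receptor signalling. In each strain 1 leg received single-stranded RNA (ssRNA) and the opposite leg saline, by 3 intramuscular injections over 10 days with 3 days of recovery between them. Saline legs thus received the same number of injections. There were 3 Illumina bead arrays for each of the 6 groups of strain and injection, but array 2 of the ssRNA-injected A/JOlaHsd legs carried no signal, which left 17. Whether each array held RNA of 1 animal is not stated in the labels, so p-values measure the spread between arrays.

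Type I interferons bind a receptor made of Ifnar1 and Ifnar2, whose kinases Jak1 and Tyk2 activate Stat2. Stat2 acts with Irf9 in a complex that binds the interferon-stimulated response element in target promoters. The targets include sensors of viral RNA, enzymes that destroy it, proteins that bind foreign transcripts, membrane proteins that hinder viral entry, and regulators that amplify or end the response. In endosomes, ssRNA is recognised by Tlr7, which signals through MyD88 to Irf7, itself an interferon target.

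The promoters of 4 members that hold the core of the response element, and of 1 that does not, are shown because these 5 genes recur in the results with different patterns. The sequences are from RefSeq, build GRCm38.p6, run from 250 bases before to 50 bases after the annotated transcript start, and read 5′ to 3′ along the gene. Capitals mark matches to the motif GAAA, any 2 bases, GAAA, searched on both strands with overlaps allowed, where a match on the opposite strand reads TTTC, any 2 bases, TTTC.
Isg15: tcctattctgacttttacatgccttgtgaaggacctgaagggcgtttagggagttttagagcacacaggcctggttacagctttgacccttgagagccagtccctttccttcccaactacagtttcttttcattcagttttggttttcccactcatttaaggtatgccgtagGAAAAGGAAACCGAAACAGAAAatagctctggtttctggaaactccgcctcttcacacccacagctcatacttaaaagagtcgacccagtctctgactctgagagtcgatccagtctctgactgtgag
Ifit3: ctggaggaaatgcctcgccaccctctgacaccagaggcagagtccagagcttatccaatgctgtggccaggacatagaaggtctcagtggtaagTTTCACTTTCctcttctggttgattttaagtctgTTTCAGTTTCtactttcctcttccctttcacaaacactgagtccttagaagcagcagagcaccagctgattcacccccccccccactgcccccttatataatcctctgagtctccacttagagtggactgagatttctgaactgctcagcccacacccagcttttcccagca
Rsad2: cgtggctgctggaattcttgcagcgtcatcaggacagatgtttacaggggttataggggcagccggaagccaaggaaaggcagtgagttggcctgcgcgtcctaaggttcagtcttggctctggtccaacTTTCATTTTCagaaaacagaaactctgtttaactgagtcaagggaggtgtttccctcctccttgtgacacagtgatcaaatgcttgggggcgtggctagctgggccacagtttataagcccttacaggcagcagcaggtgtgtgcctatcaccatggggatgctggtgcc
Ifitm3: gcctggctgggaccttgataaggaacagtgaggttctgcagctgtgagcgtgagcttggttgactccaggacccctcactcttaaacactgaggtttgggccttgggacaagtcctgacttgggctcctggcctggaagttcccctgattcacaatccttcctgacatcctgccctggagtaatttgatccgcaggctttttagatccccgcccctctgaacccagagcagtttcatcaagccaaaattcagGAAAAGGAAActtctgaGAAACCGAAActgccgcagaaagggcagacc
Lgals3bp: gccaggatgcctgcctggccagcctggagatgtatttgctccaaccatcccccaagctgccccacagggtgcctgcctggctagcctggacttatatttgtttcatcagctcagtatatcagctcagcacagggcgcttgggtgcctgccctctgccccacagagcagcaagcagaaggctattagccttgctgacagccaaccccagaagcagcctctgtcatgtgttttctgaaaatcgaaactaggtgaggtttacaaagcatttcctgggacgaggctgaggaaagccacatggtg

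The Isg15 window lies on the minus strand at chr4:156200769-156201068 and holds 3 overlapping matches from position -78 to -57 relative to the start. The Ifit3 window, on the plus strand at chr19:34583279-34583578, holds 2 separate matches on the opposite strand. The Rsad2 window, on the minus strand at chr12:26456403-26456702, holds 1, again on the opposite strand. The Ifitm3 window, on the minus strand at chr7:141010695-141010994, holds 2, and both lie inside the transcript. The Lgals3bp window, on the minus strand at chr11:118401910-118402209, holds none of these letters. Of the 43 members, 32 had a promoter in the table, and 16 of them (50%) held a match. Over all genes of the table the share was 3.99% of 27025, and over all promoters 3.44% of 32851. Parp14, Ifi27l2a, Mx1, Zbp1, Rtp4, Ifi204, Dhx58, Parp9, Mx2, Usp18 and Oas2 were not in the table. The motif was searched in a list of genes known for this response, so the share describes the list and was not tested.

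**Figure D1:**
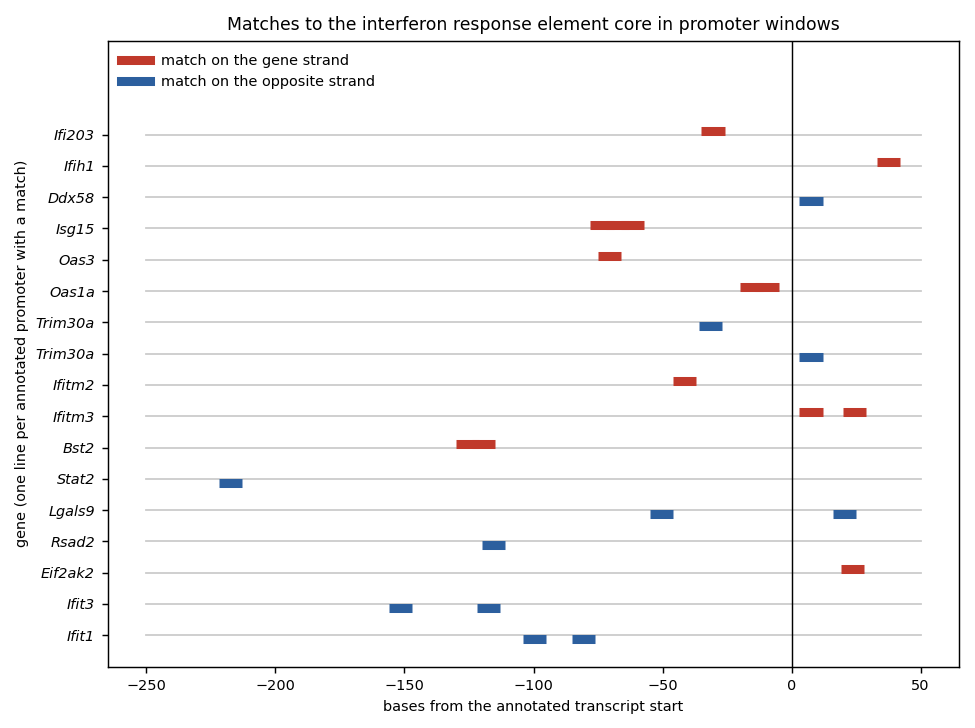
Positions of motif matches in the promoter windows of the 16 members that hold one, in bases from the annotated transcript start (x axis), with 1 line per promoter, matches on the gene strand in red and on the opposite strand in blue. Matches lie on both sides of the start, from -222 in Stat2 to 42 in Ifih1, and the 3 of Isg15 merge into 1 bar.

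Mean background-corrected signal was 37.4 to 50.2 on the 5 A/JOlaHsd arrays against 98.1 to 147 on the other 12, and 20 to 22 members were detected on each A/JOlaHsd array against 28 to 35 elsewhere. Strain and array signal cannot be told apart. Dysf was at a mean log2 value of 9.60 in the saline legs of A/JOlaHsd, 6.13 in those of A/J and 6.15 in those of A/J-MyD88. Myd88 was at 7.60 ± 0.27 (SD, n = 3) in the saline legs of A/J-MyD88 and at 6.88 ± 0.18 (SD, n = 3) in those of A/J. Where its probe lies relative to the deleted part was not known here, so this value checks nothing about the label. Values below are log2 signals after normalization, read within a gene and not between genes.

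In A/J, ssRNA raised a large part of the set. Of the 35 members tested, 19 were higher in the ssRNA legs than in the saline legs and 0 were lower (limma, Benjamini-Hochberg adjusted p under 0.05 over all genes), where 12.4% of all genes were called higher and 10.0% lower. All 35 differences were above 0, with a median of 0.97 on the log2 scale against a median of -0.05 over all genes. The ssRNA arrays all lay above the saline arrays for 18 members (20.6% of all genes) and below them for 0 (24.1%). Oas3, Mx1 and Ifi204 would not have passed the detection filter without these ssRNA arrays. Without these 3 genes all 32 differences were above 0 with a median of 1.00, 19 were called and 16 lay above without overlap, a count chosen after seeing the data. Same-numbered saline and ssRNA arrays varied together in A/J, though saline array 3 correlated more with ssRNA array 1 than with ssRNA array 3. With the number as a block 26 of 35 members were called, where 12.8% of all genes were called higher.

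**Figure D2:**
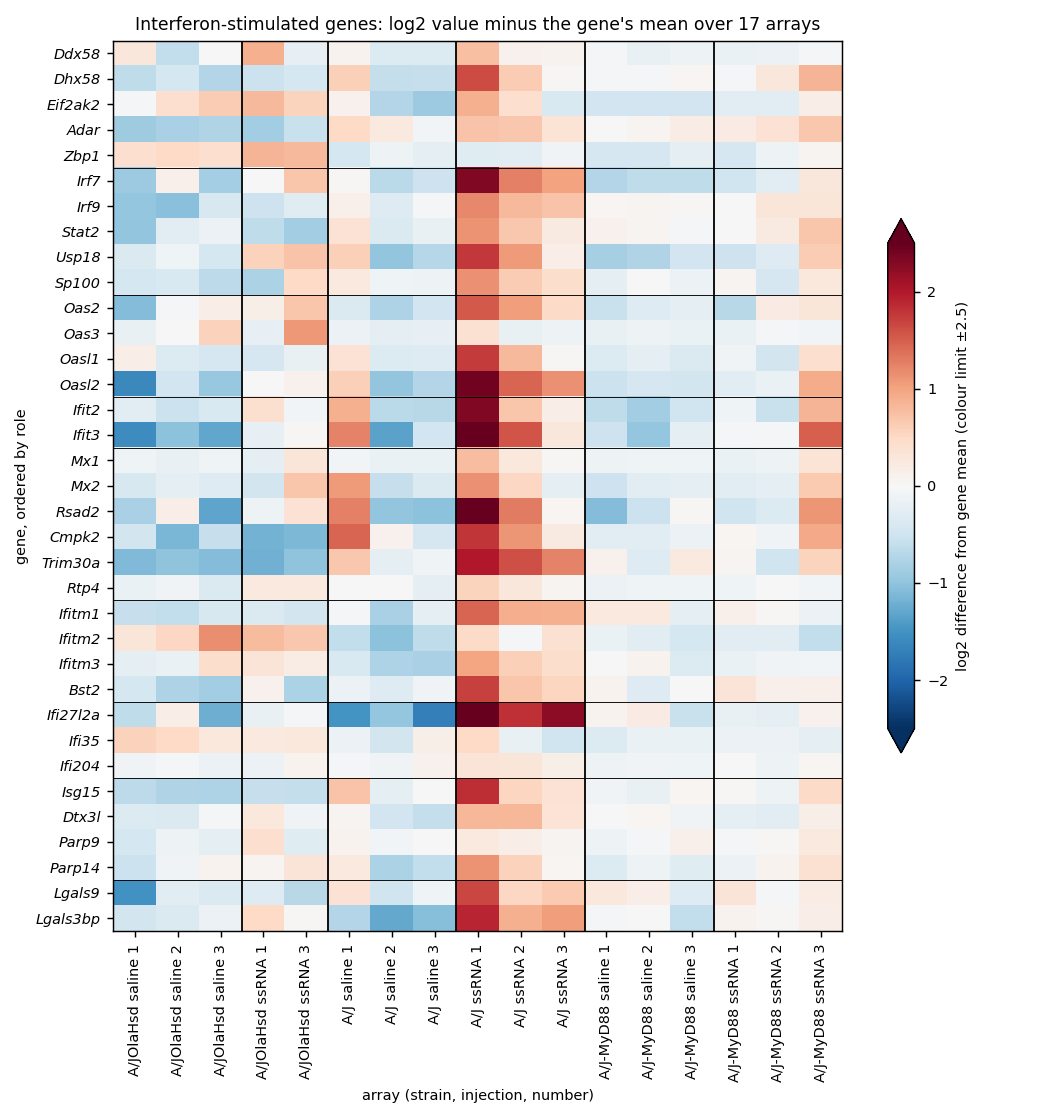
Each cell is a member's log2 value on 1 array minus its mean over the 17 arrays (red higher, blue lower, colour limit 2.5), with arrays grouped by strain and injection and genes by role. The A/J ssRNA arrays are red for most rows, and within groups array 1 of A/J ssRNA, array 1 of A/J saline and array 3 of A/J-MyD88 ssRNA stand above their companions for most of the OAS, IFIT and Mx rows.

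Among the RNA sensors and RNA-acting enzymes, 0 of 5 tested were called. Eif2ak2, the kinase PKR that halts translation on double-stranded RNA, measured 7.72, 6.88 and 6.71 on the saline arrays 1, 2 and 3 and 8.50, 8.03 and 7.24 on the ssRNA arrays. The groups overlap, and the difference was 0.82 ± 0.29 (SE; limma, adjusted p = 0.0518). Dhx58, the helicase LGP2, differed by 0.96 ± 0.35 (SE; limma, adjusted p = 0.0571), and Ddx58, the RNA sensor RIG-I, by 0.51 ± 0.26 (SE; limma, adjusted p = 0.180). With the number as a block these 3 were called, at adjusted p = 0.0127, 0.00347 and 0.0352. Adar, which edits adenosine in double-stranded RNA, differed by 0.35, and Zbp1, a sensor of Z-form nucleic acids, by 0.04.

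Of the transcription factors and regulators, 4 of 5 were higher. Irf7, the factor that drives interferon alpha genes, was at 5.17, 4.46 and 4.61 on the saline arrays and at 7.46, 6.40 and 6.13 on the ssRNA arrays. Every ssRNA array lay above every saline array, and the difference was 1.92 ± 0.33 (SE; limma, adjusted p = 0.000712), or 3.77-fold, with 2 of the 3 saline arrays above background. Usp18, the ISG15 protease that also damps the interferon receptor, was at 7.03, 5.45 and 5.73 in saline legs and 8.21, 7.5 and 6.6 in ssRNA legs. Its lowest ssRNA array was below its highest saline array, and the difference was 1.37 ± 0.40 (SE; limma, adjusted p = 0.0212). Irf9, the DNA-binding part of the interferon complex, was at 6.24, 5.80 and 6.07 against 7.32, 6.93 and 6.82, without overlap. It rose by 0.99 ± 0.18 (SE; limma, adjusted p = 0.000871), and its partner Stat2 by 0.74 ± 0.26 (SE; limma, adjusted p = 0.0488). Dimmer probes of Irf9 and Usp18 gave 0.47 and 0.35 and were not called. The call of Usp18 ended without any 1 of 4 arrays (adjusted p up to 0.114) and that of Stat2 without any 1 of 11 (up to 0.212). Sp100, a nuclear body protein, differed by 0.73 ± 0.27 (SE; limma, adjusted p = 0.0590).

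The OAS family makes the messenger that activates RNase L, apart from Oasl1, which lacks this activity in mice and is known to restrain Irf7 translation. Of 4 tested, 3 were higher. Oasl2 measured 7.24, 5.64 and 5.90 on the saline arrays and 9.04, 8.09 and 7.77 on the ssRNA arrays, without overlap, a rise of 2.04 ± 0.41 (SE; limma, adjusted p = 0.00212). Oas2 was at 5.06, 4.65 and 4.94 against 6.97, 6.47 and 5.90 and rose by 1.56 ± 0.33 (SE; limma, adjusted p = 0.00269). Oasl1, at 5.03, 4.32 and 4.35 against 6.42, 5.48 and 4.70, overlapped between the groups and was above background on 1 of 3 saline arrays. Its difference of 0.97 ± 0.33 (SE; limma, adjusted p = 0.0453) lost its call without any 1 of 11 arrays (adjusted p up to 0.238). A dimmer Oasl1 probe gave 0.54 and was not called. A further pair of Oasl2 probes, both dimmer, gave 0.56 and 0.36 and were not called. Oas3 was detected on 3 of the 17 arrays, of which none was an A/J saline array, and was not called.

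Ifit2 and Ifit3 are neighbouring genes whose proteins bind foreign RNA or the machinery that translates it. Ifit3 was at 8.22, 5.63 and 6.50 on the saline arrays and at 9.96, 8.54 and 7.26 on the ssRNA arrays. The saline array 1 exceeded the ssRNA array 3, so the groups overlap although each ssRNA array was above the saline array of its number. The rise was 1.81 ± 0.62 (SE; limma, adjusted p = 0.0472), or 3.50-fold, and the call ended without any 1 of 13 arrays (adjusted p up to 0.232). Ifit2 was at 6.71, 5.14 and 5.13 against 8.14, 6.51 and 5.99, with overlap, and its difference of 1.22 ± 0.48 (SE) had an adjusted p of 0.0827 by limma. With the number as a block both passed, at adjusted p = 0.00484 for Ifit3 and 0.00208 for Ifit2.

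Of the Mx genes and other antiviral effectors, 2 of 6 tested were higher. Trim30a, a ubiquitin ligase that restrains toll-like receptor signalling in mice, was at 5.99, 5.09 and 5.23 in saline legs and 7.33, 6.94 and 6.57 in ssRNA legs. The groups did not overlap, and the rise was 1.5 ± 0.27 (SE; limma, adjusted p = 0.000802). Rtp4 rose by 0.38 ± 0.13 (SE; limma, adjusted p = 0.0374) and lost its call without any 1 of 8 arrays. Rsad2, the radical-SAM enzyme viperin, was at 7.96, 5.72 and 5.67 against 9.20, 8.0 and 6.75. Its saline array 1 was above the ssRNA array 3, and the difference of 1.53 ± 0.65 (SE) had an adjusted p of 0.104 by limma, or 0.00298 with the number as a block. Cmpk2, a mitochondrial nucleotide kinase encoded beside Rsad2, differed by 0.66 ± 0.42 (SE; limma, adjusted p = 0.294), or 0.0315 with the block. The dynamin-like GTPases Mx1 and Mx2 were not called. Mx2 differed by 0.43. Mx1 was above background on no A/J saline array and on 2 of 3 ssRNA arrays. Its ssRNA mean was at least 1.15-fold higher, a bound that leaves out the spread between arrays.

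All 4 members of the IFITM family and Bst2, membrane proteins that hinder the entry or release of enveloped viruses, were higher. Ifitm3 was at 10.39, 10.00 and 9.96 on the saline arrays and 11.75, 11.36 and 11.21 on the ssRNA arrays, a rise of 1.33 ± 0.19 (SE; limma, adjusted p = 0.000119) without overlap. Ifitm1 was at 9.62, 8.85 and 9.41 against 11.12, 10.57 and 10.55 and rose by 1.45 ± 0.20 (SE; limma, adjusted p = 8.18e-05). Bst2, or tetherin, was at 4.90, 4.72 and 4.96 against 6.75, 5.73 and 5.58 and rose by 1.16 ± 0.26 (SE; limma, adjusted p = 0.00452). Ifitm2 rose by 1.03 ± 0.20 (SE; limma, adjusted p = 0.00158). The Ifitm genes are adjacent and alike in sequence, so their probes may share signal. A further Ifitm1 probe, dimmer, gave 0.22 and was not called.

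Ifi27l2a, a small interferon-inducible membrane protein of mitochondria, was the largest difference of the set. It measured 6.43, 6.95 and 6.21 on the saline arrays and 10.54, 9.75 and 10.16 on the ssRNA arrays. The groups are far apart, and the rise was 3.62 ± 0.30 (SE; limma, adjusted p = 1.97e-06), or 12.3-fold. Ifi35 and Ifi204, the other Ifi genes tested, were not called. Ifi35 differed by 0.08. Ifi204 was above background on no A/J saline array, and its ssRNA mean was at least 1.03-fold higher, again without regard to spread.

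Of the ubiquitin-like and ADP-ribosylation genes, 2 of 4 were higher. Dtx3l, a ubiquitin ligase that works with Parp9, was at 7.73, 7.18 and 7.07 against 8.50, 8.49 and 8.01, a rise of 1.00 ± 0.19 (SE; limma, adjusted p = 0.00112) without overlap. A dimmer Dtx3l probe gave -0.22, and the probes of this gene disagree. Parp14 rose by 0.97 ± 0.28 (SE; limma, adjusted p = 0.0183), with overlap and a call that ended without any 1 of 3 arrays. A dimmer Parp14 probe gave 0.36 and was not called. Isg15, the ubiquitin-like modifier whose promoter is shown above, was at 5.66, 4.70 and 4.97 in saline legs and 6.79, 5.49 and 5.32 in ssRNA legs. Array 1 was the highest in each group, and the difference of 0.76 ± 0.30 (SE) had an adjusted p of 0.0872 by limma, or 0.00667 with the block. Parp9, encoded next to Dtx3l, differed by 0.15.

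Both galectin-related members were higher. Lgals3bp, a secreted glycoprotein that binds galectin 3, was at 7.02, 6.46 and 6.68 on the saline arrays and 9.65, 8.64 and 8.79 on the ssRNA arrays. It rose without overlap by 2.31 ± 0.24 (SE; limma, adjusted p = 9.02e-06), or 4.96-fold. Lgals9 rose by 1.03 ± 0.33 (SE; limma, adjusted p = 0.0342), also without overlap, and lost its call without any 1 of 3 arrays. Over all 19 called members, 12 kept their call whichever single array was left out. These were Irf7, Irf9, Oas2, Oasl2, Trim30a, Ifitm1, Ifitm2, Ifitm3, Bst2, Ifi27l2a, Dtx3l and Lgals3bp. The count fell to 12 without array 3 of the A/J saline legs, and also to 12 without array 1 of the A/J ssRNA legs. Here and below, counts after leaving out an array come without the share over all genes. They do not show whether all genes moved likewise. Besides the probes used, 17 further probes of 13 members passed the filter. Of these, 16 had differences above 0 in A/J and 3 were called, those of Dhx58, Ifit3 and Lgals9. For these and the dimmer probes named above, p-values were adjusted over the 20825 probes that passed the filter, not over genes. By that adjustment the probes used for Ifit3 (limma, adjusted p = 0.0577), Stat2 (0.0590) and Oasl1 (0.0551) were not called.

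In A/J-MyD88 no member was called. The count was 0 of 35 in either direction (limma), as it was for all genes (0%), and 0 members passed even an unadjusted p under 0.05, where 0.757% of all genes were higher and 0.401% lower. Differences were above 0 for 30 of 35 members, with a median of 0.20 against 0.01 over all genes. The ssRNA arrays lay above all saline arrays for 9 members (5.64% of all genes) and below for 0 (3.24%). Ifi27l2a, the strongest responder of A/J, was at 8.02, 8.13 and 7.37 on the saline arrays and 7.74, 7.70 and 8.03 on the ssRNA arrays, which is a full overlap and a difference of -0.02 ± 0.30 (SE). Ifitm3 was at 10.79, 10.85 and 10.43 against 10.61, 10.68 and 10.71, a difference of -0.02 ± 0.19 (SE). Lgals3bp was at 7.71, 7.74 and 7.13 against 7.83, 7.77 and 7.90, a difference of 0.30 ± 0.24 (SE).

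Other members differed more in A/J-MyD88, with their highest values on 1 array. Ifit3 was at 6.46, 6.01 and 6.74 on the saline arrays and 6.95, 6.95 and 8.46 on the ssRNA arrays. Its 3 ssRNA arrays were above its saline arrays, and the difference of 1.05 ± 0.62 (SE; limma, adjusted p = 1.00) was the highest of the set in this strain. Ifit2 followed with 0.74 ± 0.48 (SE), then Oasl2 with 0.63 ± 0.41 (SE). Rsad2, at 5.62, 6.17 and 6.72 against 6.20, 6.35 and 7.80, differed by 0.61 ± 0.65 (SE). In each of these genes ssRNA array 3 was the highest of the strain. Without that array the median difference of the 35 members was 0.08, also against the 3 saline arrays, and 27 of 35 differences were above 0.

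In A/JOlaHsd, again 0 of 35 members were called (limma), where 0.864% of all genes were called higher and 0.988% lower, and 6 were higher at an unadjusted p under 0.05 (6.96% of all genes) and 0 lower (7.11%). Only 2 ssRNA arrays remained here. The median difference was 0.34 against a value close to 0 over all genes, and the arrays of the ssRNA legs lay above all saline arrays for 8 members (9.62% of all genes) and below for 0 (8.82%). Ifit3 was at 5.40, 5.95 and 5.67 in saline legs and 6.77 and 7.0 in ssRNA legs, a difference of 1.21 ± 0.70 (SE). Oasl2, at 5.02, 6.15 and 5.68 against 6.65 and 6.74, differed by 1.08 ± 0.46 (SE), and Usp18 by 0.95 ± 0.45 (SE). Ifi27l2a was at 7.29, 8.10 and 6.71 against 7.75 and 7.90, with overlap and a difference of 0.46 ± 0.34 (SE). The smallest adjusted p among members was 0.146.

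**Figure D3:**
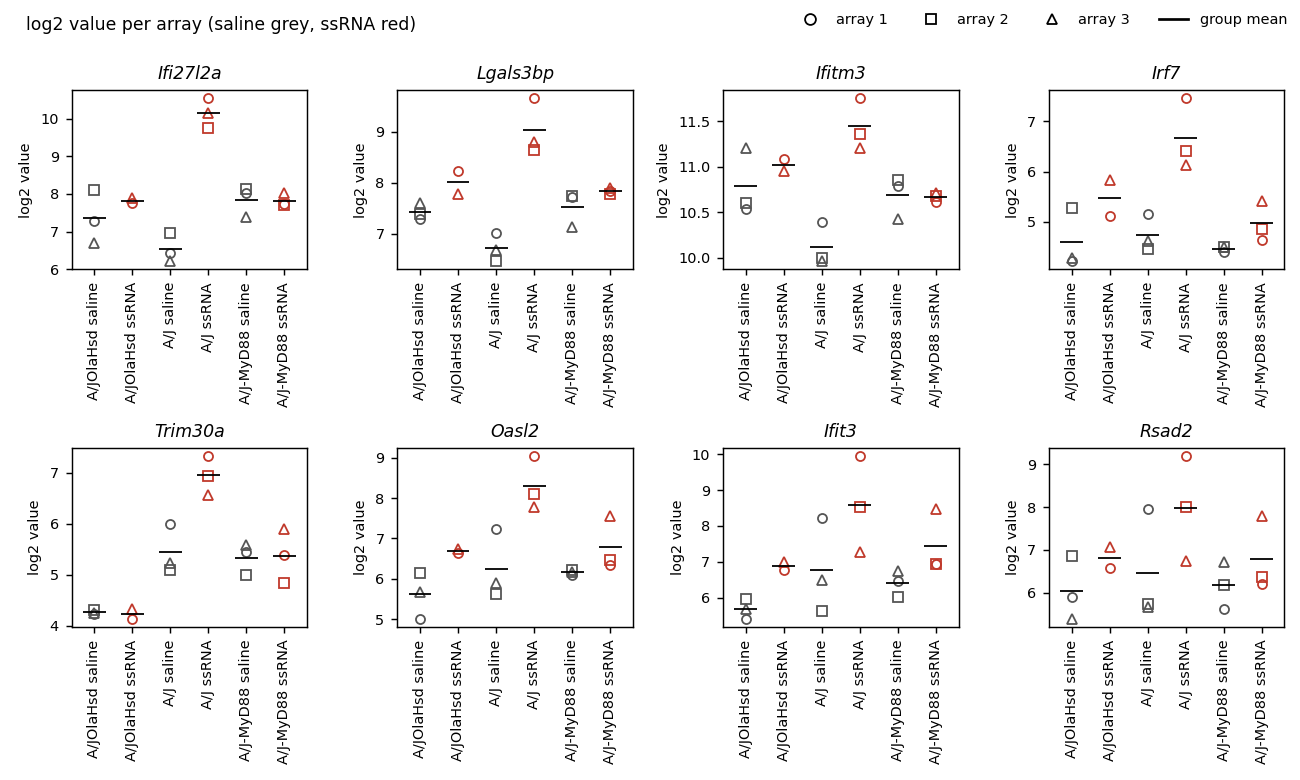
log2 value per array of 8 members in the 6 groups, saline legs grey and ssRNA legs red, with array numbers as symbols and a line at the group mean. In Ifi27l2a, Lgals3bp, Ifitm3 and Trim30a all A/J ssRNA arrays lie above the A/J saline arrays, while Ifit3 and Rsad2 are spread over more than 2 log2 units within the A/J ssRNA group.

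The response itself was compared between strains as a difference of differences. The A/J-MyD88 response was lower than that of A/J for 8 of 35 members and higher for 0, where 6.89% of all genes were called lower and 3.34% higher. Ifi27l2a responded less by -3.64 ± 0.43 (SE; limma, adjusted p = 0.000249) and Lgals3bp by -2.01 ± 0.34 (SE; limma, adjusted p = 0.00163). Ifitm1 differed by -1.53 ± 0.28, Ifitm3 by -1.35 ± 0.27 and Ifitm2 by -1.11 ± 0.28 (SE), so 3 of the 4 genes of that group were called. Trim30a (-1.47 ± 0.38), Dtx3l (-1.11 ± 0.26) and Irf9 (-0.85 ± 0.25, SE) completed the list. Of the 35 response differences, 1 was above 0, that of Zbp1. Without Oas3, Mx1 and Ifi204, which passed the detection filter only through the A/J ssRNA arrays, it was 1 of 32, and 8 were called lower. With the number as a block 11 members were called lower and 0 higher, where 796 of 11233 genes were called lower and 354 higher. Among the 11 were also Irf7 (-1.41, limma, adjusted p = 0.0104), Oas2 (-1.24, 0.0330) and Oasl2 (-1.41, 0.0249). Leaving out single arrays ended the calls of Irf9, Trim30a and Ifitm2 (limma, adjusted p up to 0.107). With the mean of probes the calls of Dtx3l (-0.42, limma, adjusted p = 0.142) and Irf9 (-0.64, limma, adjusted p = 0.168) ended. The count was 5 without array 1 of the A/J ssRNA legs or without array 1 of the A/J-MyD88 saline legs.

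No response difference was called for the IFIT genes, Rsad2, Usp18, Isg15 or the RNA sensors. Ifit3 differed by -0.76 ± 0.88 (SE; limma, adjusted p = 0.676) and Rsad2 by -0.92 ± 0.92 (SE; limma, adjusted p = 0.607). These standard errors are large, and a missed threshold does not show that the strains responded alike.

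The A/J response exceeded that of A/JOlaHsd for 5 of 35 members and was lower for 0, where 4.91% of all genes were called higher and 2.56% lower. These were Ifi27l2a by 3.16 ± 0.45 (SE; limma, adjusted p = 0.00347), Lgals3bp by 1.73 ± 0.36 (SE; limma, adjusted p = 0.0126), Ifitm1 by 1.33 ± 0.30, Ifitm3 by 1.09 ± 0.28 (SE) and Trim30a. Trim30a was above background on none of the A/JOlaHsd arrays, so its response there has no measured value and no size is given for the difference. Under single-array removal Trim30a and Ifitm3 lost their calls (adjusted p up to 0.0901). The count was 3 without array 1 of the A/JOlaHsd ssRNA legs, arrays 2 or 3 of the A/J saline legs, or array 1 of the A/J ssRNA legs. Both comparisons of responses use the same A/J arrays.

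**Figure D4:**
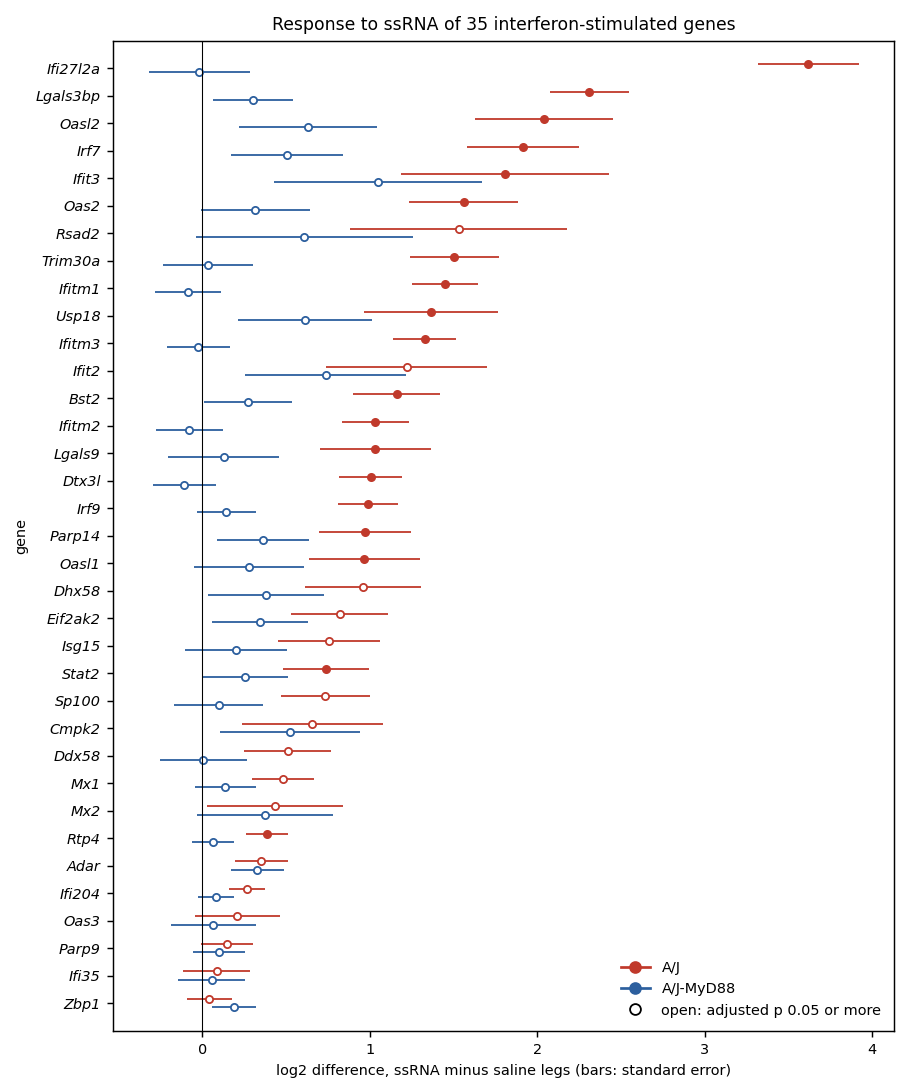
log2 difference between ssRNA and saline legs (x axis, bars are standard errors of the limma fit) for the 35 members in A/J (red) and A/J-MyD88 (blue), ordered by the A/J value, with filled points for an adjusted p under 0.05. The 19 filled points are all in A/J, and the A/J-MyD88 points run from -0.11 to 1.05. Points of Oas3, Mx1 and Ifi204, and of Oasl1 in A/J-MyD88, are fitted values against saline legs with no array above background.

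The legs were also compared between strains within each injection. Among ssRNA legs, A/J-MyD88 had 9 members below their A/J level and 0 above it, where 3.05% of all genes were called lower and 2.68% higher, and 17 of 35 lay below without overlap (14.8% of all genes) and 0 above (19.9%). Oas3, Mx1 and Ifi204 passed the detection filter only through the A/J ssRNA arrays compared here. Without these 3 genes 9 members were called lower and 16 of 32 lay below without overlap, a count chosen after seeing the data. The 9 called members were Irf7 (-1.69), Irf9, Oasl2 (-1.50), Trim30a (-1.58), Ifitm1 (-1.08), Ifitm3, Ifi27l2a (-2.33), Dtx3l and Lgals3bp (-1.20). At an unadjusted p under 0.05, 19 members were lower (9.67% of all genes). The calls of Irf9, Oasl2, Ifitm3 and Dtx3l ended without single arrays (limma, adjusted p up to 0.166). With the mean of probes those of Irf9 (-0.54), Oasl2 (-0.78) and Dtx3l (-0.39) ended. The count was 5 without array 1 or 2 of the A/J ssRNA legs or array 1 or 2 of the A/J-MyD88 ssRNA legs. Among saline legs, 1 member was higher in A/J-MyD88, where 4.42% of all genes were called higher. This was Ifi27l2a, by 1.31 ± 0.30 (SE; limma, adjusted p = 0.0171), which lost its call without array 1 or 3 of the A/J saline legs or array 1 or 2 of the A/J-MyD88 saline legs (adjusted p up to 0.113).

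Between the saline legs of A/J and A/JOlaHsd, 5 members were higher in A/J and 7 lower, where 22.9% of all genes were called higher and 24.4% lower. The members' shares, 14.3% and 20%, were close to or below those of all genes. Without overlap, 8 members lay higher (25.6% of all genes) and 5 lower (25.0%). Ifitm2 was lower in A/J by -1.41 ± 0.20 (SE; limma, adjusted p = 5.16e-05), with 8.62, 8.21 and 8.6 against 9.52, 9.74 and 10.39. Zbp1 (-0.71), Ifitm3 (-0.67), Ifi27l2a (-0.84), Lgals3bp (-0.70), Eif2ak2 (-0.84) and Ifi35 (-0.59) were also lower. Irf9 (0.72), Cmpk2 (1.11), Adar, Trim30a and Isg15 were higher. The last 3 were above background on no A/JOlaHsd saline array, so no fold is given for Adar, and Trim30a and Isg15 were at least 1.57-fold and at least 1.25-fold higher in A/J, measured against the lowest detected signal of each array. With median centring of the arrays 9 of the 12 calls ended, all but those of Zbp1, Irf9 and Ifitm2, and Trim30a (0.35) and Isg15 (0.03) then differed by less than these bounds. Zbp1 and Ifitm2 were the members that kept their call under every alternative with 17 arrays or fewer. The call of Irf9 ended with the mean of its probes (0.19). The count was 7 without array 2 of the A/JOlaHsd saline legs.

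The members varied more between arrays of a group than most genes did in A/J. The median SD between arrays was 0.370 for the members and 0.150 for all genes in A/J saline legs, and 0.503 and 0.124 in A/J ssRNA legs. In A/J-MyD88 the medians were 0.119 and 0.115 in saline legs and 0.263 and 0.139 in ssRNA legs. In A/JOlaHsd the members were close to all genes, at 0.226 and 0.247 in saline legs.

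This spread had a common order over the set. A/J saline array 1 was the highest of its group for 30 of 35 members (29.3% of all genes). A/J ssRNA array 1 was the highest for 34 of 35 (32.0% of all genes), and A/J-MyD88 ssRNA array 3 for 27 of 35 (34.7% of all genes). In A/J the arrays with the same number were taken to be opposite legs, from their correlated deviations and not from the labels, and array 1 of both injections stood highest. The excess of an array was taken as its value minus the mean of the other arrays of its group, for these 3 arrays, which were singled out after their values were seen. The median excess over the members was 0.49 on A/J saline array 1, 0.78 on A/J ssRNA array 1 and 0.40 on A/J-MyD88 ssRNA array 3, and close to 0 over all genes. An excess above 1 was found for 8, 12 and 5 members, and for 0.463%, 0.463% and 0.329% of all genes.

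The genes with a high excess were largely shared by the 3 arrays. Ifit3 had an excess of 2.16, 2.06 and 1.52, in the order just given, Rsad2 of 2.27, 1.83 and 1.52, and Ifit2 of 1.57, 1.89 and 1.18. Oasl2 had 1.47, 1.12 and 1.14, Usp18 1.44, 1.16 and 1.07, and Cmpk2 1.61, 1.12 and 0.98. Ifitm2 had 0.21, 0.30 and -0.34, Ifi27l2a -0.15, 0.59 and 0.31, and Lgals3bp 0.45, 0.94 and 0.10. The IFIT genes, Rsad2, Oasl2 and Usp18 thus stood above 1 on each of the 3 arrays, and Ifitm2, Ifi27l2a and Lgals3bp on none. Across the 35 members the excess on A/J saline array 1 had a Pearson correlation of 0.79 with that on A/J ssRNA array 1 and of 0.85 with that on A/J-MyD88 ssRNA array 3. Over the 11198 other genes these were 0.37 and -0.11. The genes share arrays and normalization, and they are not independent replicates.

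**Figure D5:**
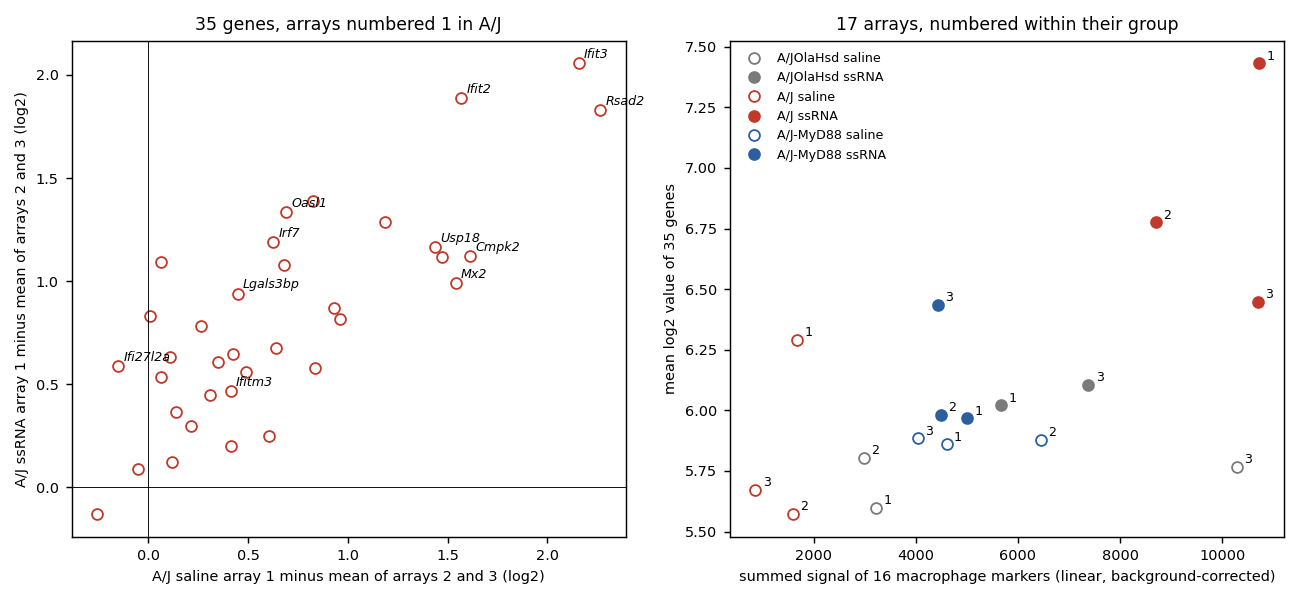
Left, for each of the 35 members, the log2 excess of array 1 over arrays 2 and 3 in A/J saline legs (x axis) and in A/J ssRNA legs (y axis), in which Ifit3, Ifit2 and Rsad2 lie far above 0 on both axes. Right, the summed signal of 16 macrophage markers (x axis, linear and so weighted to the brightest, such as Lyz2) against the mean log2 value of the 35 members (y axis) on each of 17 arrays, numbered within their group. A/J-MyD88 ssRNA array 3 is the highest of its group for the members and the lowest for the macrophage sum, while A/J saline array 1 is the highest of its group for both.

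In A/J, the difference between same-numbered legs had a median over the members of 1.08 for number 1, 1.14 for number 2 and 0.64 for number 3, and 35, 34 and 34 of 35 differences were above 0. In A/J-MyD88 the medians were 0.11, 0.09 and 0.49.

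Markers of leukocytes moved with the members in A/J. Of 16 macrophage markers tested 14 were higher in ssRNA legs, with a median difference of 2.45, and their summed signal was 858 to 1669 in saline legs and 8698 to 10725 in ssRNA legs. Lyz2, a lysozyme of myeloid cells, rose by 3.40 ± 0.45 (SE; limma, adjusted p = 6.82e-05). In A/J-MyD88 the sums were 4033 to 6446 in saline legs and 4439 to 5002 in ssRNA legs, with 0 of 16 called, and in A/JOlaHsd 2989 to 10295 and 5664 to 7380. Among saline legs, 10 of 16 of these markers had the higher level in the MyD88-deficient strain when set against A/J. All 5 T and NK cell markers and all 3 neutrophil markers tested were also higher in A/J ssRNA legs, as were 4 of 7 fibroblast markers. T and NK sums ran from 14.2 to 30.0 in A/J saline legs and from 173 to 219 in A/J ssRNA legs, and in A/JOlaHsd, where 2 of 5 markers were higher, from 20.6 to 29.1 and from 130 to 142. Neutrophil sums ran from 14.5 to 37.6 in A/J saline legs and from 90.8 to 96.9 in A/J ssRNA legs, and in A/JOlaHsd from 51.2 to 97.0 and from 66.5 to 121. Cd8a, Cd4, Gzmb, S100a9, Retnlg and Cxcr2 were detected on no array. Of 10 muscle fibre markers 0 were called in A/J, and their sums ran from 70974 to 97163 over all arrays. In whole muscle, more cells of a type and more RNA per cell cannot be told apart, and the part of these cells in the members' rise was not tested.

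Within groups the macrophage sum and the members did not always give the same order. In A/J saline legs array 1 was the highest for both, with sums of 1669, 1589 and 858 and mean member values of 6.29, 5.57 and 5.67 on arrays 1, 2 and 3. A/J ssRNA arrays 1, 2 and 3 had sums of 10725, 8698 and 10698 and mean member values of 7.43, 6.78 and 6.45. On the A/J-MyD88 ssRNA arrays the sums were 5002, 4498 and 4439 and the means 5.97, 5.98 and 6.44, so the array with the highest members had the lowest sum. The sums are linear and weighted to their brightest genes. On A/J-MyD88 ssRNA arrays 1, 2 and 3 Lyz2 was at 10.82, 10.38 and 10.25. Laptm5 was at 10.57, 10.81 and 10.79 and Adgre1 at 7.07, 6.93 and 7.13, so single markers did not all share the order of the sum. The A/JOlaHsd saline array 3 had a sum of 10295 and a mean member value of 5.77, close to its companions at 5.6 and 5.80. Its Lyz2 value was 12.68, against 10.45 and 10.43 on arrays 1 and 2 of that group. Of the plasmacytoid dendritic cell markers, Siglech and Klk1 of 5 tested were higher in A/J ssRNA legs, Siglech by 0.83 ± 0.19 (SE; limma, adjusted p = 0.00533), and Ccr9 was detected on no array. The list's sums, from 10381 to 12464 over all arrays, were mostly Cox6a2, which muscle also expresses. Of 2 B cell markers and 6 endothelial markers tested, 0 were higher, and 1 endothelial marker was lower.

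The rest of the interferon pathway was described from lists of non-members. Of 39 genes tested, 18 were higher and 1 was lower in A/J, 0 were called in A/J-MyD88 and 3 were higher in A/JOlaHsd. The ligands were largely unmeasured. Of 17 ligand genes with a probe, 3 passed the filter and 11, among them Ifnb1 and Ifng, were detected on no array. None of the 3, Ifna1, Ifna6 and Ifnab, was called in A/J. Of the receptors and kinases, Ifnar2 rose by 1.14 ± 0.12 (SE; limma, adjusted p = 1.05e-05) and Tyk2 by 0.76 ± 0.13 (SE), while Jak1 fell by 0.68 ± 0.17 (SE; limma, adjusted p = 0.00773). Ifnar1 was detected on no array.

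Upstream of interferon, Tlr7, the ssRNA receptor, was at a mean of 4.79 in A/J saline legs and 6.93 in ssRNA legs, a rise of 2.14 ± 0.24 (SE; limma, adjusted p = 1.74e-05). Unc93b1, which carries Tlr7 to endosomes, rose by 1.97 ± 0.32 (SE), Myd88 by 1.25 ± 0.17 (SE) and Tbk1 by 0.83 ± 0.18 (SE). The Tlr7 response of A/J-MyD88 minus that of A/J was -2.20 ± 0.34 (SE; limma, adjusted p = 0.00100). Irf8, a factor of myeloid cells, rose by 1.68 ± 0.25 (SE) and Irf1 by 1.09 ± 0.13 (SE). Ptpn6, the leukocyte phosphatase SHP-1, was the inhibitor that rose, by 2.60 ± 0.24 (SE), and Socs1 was detected on no array.

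Of the targets better known for interferon gamma, 7 of 10 tested were higher in A/J. The guanylate-binding proteins Gbp2 and Gbp3 rose by 1.15 ± 0.30 and 1.56 ± 0.32 (SE), the chemokine Cxcl9 by 1.62 ± 0.31 (SE), and Ciita, the regulator of MHC class II, was at least 2.41-fold higher. Cxcl10 differed by 0.51 ± 0.30 (SE; limma, adjusted p = 0.244) and was not called. Of these 10 genes, 1, Ciita, was called as responding less in A/J-MyD88, with no size given because no A/J saline array was above background.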

How the data were processed

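Intensity values of 18 bead arrays, background-subtracted but not normalized between arrays, were deposited by the authors, and GenomeStudio is named in the submitters' processing notes. The authors also deposited a second intensity table, which its values show to be normalized within the 6 arrays of each strain, used as an alternative. A detection p-value per probe and array was deposited beside the intensities. The 43 members, the gene lists and the tests were chosen with earlier results of these data known.

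In R 4.3.3 with limma 3.58.1, 17 arrays were background-corrected and quantile-normalized with neqc (offset 16, log2). The array left out had 3.71% of probes detected. The filter (detection p under 0.05, minimum 3 arrays) left 20825 of 45281 probes. Of all probes, 34885 had 1 symbol, 18 several and 10378 were not listed; 34807 matched the gene table of GRCm38.p6 and 0 changed. A mean per group was fitted with lmFit and eBayes (11 residual and 4.97 prior degrees of freedom), p-values were two-sided and adjusted over 11233 genes, and the number of arrays limits the precision. For a difference against a group with no array above background, a lower bound or no size is given in the text. The bound compares group means with the lowest detected signal and leaves out the spread between arrays. Figures, medians and flagged values hold fitted values. In simulated data 88 of 100 genes changed 2-fold were called for A/J, 84 for A/J-MyD88 and 58 for their response difference. For A/JOlaHsd 77 were called, and 51 for the A/J response against that of A/JOlaHsd. The changed genes were drawn from all genes. In A/J-MyD88 the median SE was 0.165 over all genes and 0.267 over the members, so these rates do not hold for the members, whose own rate was not simulated.

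Named genes were, by rule, the called members with the largest A/J differences of each role group, the largest difference in each other comparison, and called pathway genes; other members were added after their values were seen. Deviations of same-numbered legs correlated at 0.396, 0.434 and 0.139 in A/J and 0.470, 0.175 and 0.172 in A/J-MyD88. Differently numbered legs correlated at -0.490 to 0.168 in A/J and at -0.305 to 0.083 in A/J-MyD88. The numbers, from the sample titles, were taken to pair the legs there. A/J saline array 3 correlated more with ssRNA array 1 (0.168) than with ssRNA array 3 (0.139), so that pair is uncertain, as are block results resting on it. Alternatives were all 18 arrays, median centring, each strain normalized alone, the authors' table, no background correction, other filters and probe rules, only the arrays compared, array weights, the replicate block, and leaving out each array.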

Additional observations from a re-analysis of the deposited data

Results flagged for a closer look

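The A/J-MyD88 response minus the A/J response, tested as an interaction, passed the threshold for 8 members, all with a lower response in A/J-MyD88. The values were -3.64 for Ifi27l2a, -2.01 for Lgals3bp, -1.53 for Ifitm1, -1.47 for Trim30a, -1.35 for Ifitm3, -1.11 for Ifitm2, -1.11 for Dtx3l and -0.85 for Irf9 (log2). Ifitm1, Ifitm3, Ifi27l2a and Lgals3bp kept the call under every alternative but that with all 18 arrays.

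The A/J response minus the A/JOlaHsd response passed the threshold for 5 members, with a higher response in A/J. The values were 3.16 for Ifi27l2a, 1.73 for Lgals3bp, 1.54 for Trim30a, 1.33 for Ifitm1 and 1.09 for Ifitm3 (log2). That of Trim30a is a fitted value without a measured size, since its probe was above background on none of the 5 A/JOlaHsd arrays. Ifi27l2a kept the call under every alternative but that with all 18 arrays. The groups held at most 3 arrays, too few to examine single arrays as outliers.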

How the results depend on the processing

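Counts of members called are given throughout, with the share over all genes for the replicate block only. For the other alternatives these counts do not show whether all genes moved likewise. With all 18 arrays the counts were 2 for ssRNA against saline in A/J, 0 for both response differences, 1 for the saline legs of A/J against A/JOlaHsd, and 0 for the saline and for the ssRNA legs of A/J-MyD88 against A/J. Where the A/J response was set against that of A/JOlaHsd (5 members), the count was 9 with median centring, 10 with each strain normalized alone, 10 in the authors' table, 2 with only the arrays compared and 1 with array weights. For the saline legs of A/J-MyD88 against A/J (1 member) it was 2 with median centring, 0 with no filter, 2 with the mean of probes, 2 with only the arrays compared, 3 with array weights and 3 with only the 12 arrays of these strains, an alternative chosen after seeing the data. For their ssRNA legs (9 members) it was 15 with median centring and 15 with those 12 arrays. The replicate block gave 2 higher members in A/JOlaHsd, Irf7 (limma, adjusted p = 0.0334) and Oasl2 (0.0459), where 0.872% of all genes were called higher. It gave 7 for the A/J response against that of A/JOlaHsd, where 6.51% of all genes were called higher. In A/JOlaHsd, same-numbered legs correlated at -0.123 and -0.103. With 2 ssRNA arrays the deviations of the 2 mirror each other, so these values cannot show whether the numbers pair the legs. The block results that use A/JOlaHsd rest on the number alone. The cause of these changes was not tested.

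Leaving out 1 array gave 12 to 25 members in A/J, 0 in A/J-MyD88, 0 to 1 in A/JOlaHsd, 5 to 9 and 3 to 7 for the response differences with A/J-MyD88 and A/JOlaHsd, 7 to 13 and 0 to 3 for the saline legs of A/JOlaHsd and A/J-MyD88, and 5 to 11 for the ssRNA legs. Where this left 1 array in the A/JOlaHsd ssRNA group, it was assumed to vary like the others. Small A/J differences, none called, turned sign. With array weights Ifi35 was -0.10 and Mx2 -0.083. Leaving out single A/J arrays gave Ifi35 -0.19 to 0.30 (-0.065 without saline 2) and Zbp1 -0.044 to 0.11 (-0.030 without ssRNA 3). Median centring moved the median of all genes in A/J from -0.05 to -0.18.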
